A study of Xenopus laevis with 20 samples.

Results

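Ventral tissue made to express Noggin and Dkk-1 together (Nog+Dkk) was compared with control ventral tissue (Ven) at late gastrula, stage 11.5, in the frog Xenopus laevis. The samples were taken by their titles, Noggin plus Dkk-1 at stage 11.5 and Ventral at stage 11.5, and are 4 of the 20 arrays of the series, 1 array of each condition from clutch 3 and 1 from clutch 4. The series holds 5 conditions (Nog+Dkk, Noggin alone or Nog, Dkk-1 alone or Dkk, Ven and dorsal tissue or Dor) at stages 10 and 11.5, each in 2 clutches.

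Nog+Dkk embryos received plasmids for noggin and dkk-1 together with eGFP mRNA in the marginal zone of a single ventral blastomere at the 4-cell stage. Ven embryos received eGFP mRNA alone at that site, and Dor was the opposite part of those control embryos. The Nog and Dkk embryos carried 1 of the plasmids with the eGFP mRNA, so every embryo of the 5 conditions carried eGFP. Embryos were sorted for eGFP fluorescence and cut into dorsal and ventral parts, at stage 11.5 with the fluorescence as the ventral mark and at stage 10 with the blastopore lip as the dorsal one, and 10 such parts were pooled for each array. A sample therefore mixes cells that inherited plasmid with neighbours that did not. In bulk tissue of this kind, fewer cells of a type and less RNA per cell cannot be told apart.

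Noggin is a secreted protein that binds bone morphogenetic proteins (BMPs) and keeps them from their receptors, and Dkk-1 blocks canonical Wnt signalling by binding the LRP co-receptor at the cell surface. Both are made by the dorsal organizer, the gastrula tissue that patterns the body axis. BMP signals specify ventral and epidermal fates, canonical Wnt signals specify posterior and ventrolateral fates, and the organizer's head-forming activity is known to need inhibition of both pathways. Xenopus laevis carries a pair of related subgenomes, and the suffixes .L and .S name the copies of a gene on each.

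Levels are given as log2 of the deposited array signal. A change is the Nog+Dkk value minus the Ven value of the same clutch, averaged over clutches 3 and 4, and is given with its standard error (SE) from a limma fit. Of the 15491 probe sets tested, 412 rose (2.66%) and 300 fell (1.94%) in Nog+Dkk at a Benjamini-Hochberg adjusted p below 0.1, and all 712 had the same direction in both clutches. Rank products, which order probe sets by their change within each clutch, called 47 higher (0.303%) and 35 lower (0.226%) at a 10% false discovery rate, and limma called each of these as well. The response was of moderate size. The median change of the probe sets that rose was 0.55 and of those that fell -0.46, against -0.04 over all probe sets, and 98.3% of all probe sets lay within 1.5-fold of Ven. More than 2-fold differences were seen for 33 probe sets above Ven and 23 below it, and all of these passed the test. Without adjustment, 7.43% of all probe sets were above Ven and 9.17% below it at a p under 0.05, and the unadjusted counts of the gene lists are to be read against these shares.

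The pair of clutches did not weigh equally in the calls. Without clutch 3 the fit called 780 probe sets higher and 471 lower, and without clutch 4 it called 178 higher and 271 lower. Among the 412 that rose, 115 were still called without clutch 4, 302 without clutch 3 and 74 in both of these fits, and among the 300 that fell the numbers were 114, 137 and 52. Of the probe sets that rose, 125 of 412 changed more in clutch 3, and of those that fell, 171 of 300. Of the organizer transcription factors that rose, 12 of 13 had their larger change in clutch 3, and of the ventral genes that fell, 11 of 13, as the plot of each probe set's change in the 2 clutches shows. In both fits that leave out a clutch, the remaining stage 11.5 array of each condition had no replicate and gave no measure of spread. The spread came only from the stage 10 arrays, and the stage 11.5 arrays were assumed to share it. Calls kept or lost in these fits, here and below, compare unreplicated arrays and rest on that assumption.

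**Figure D1:**
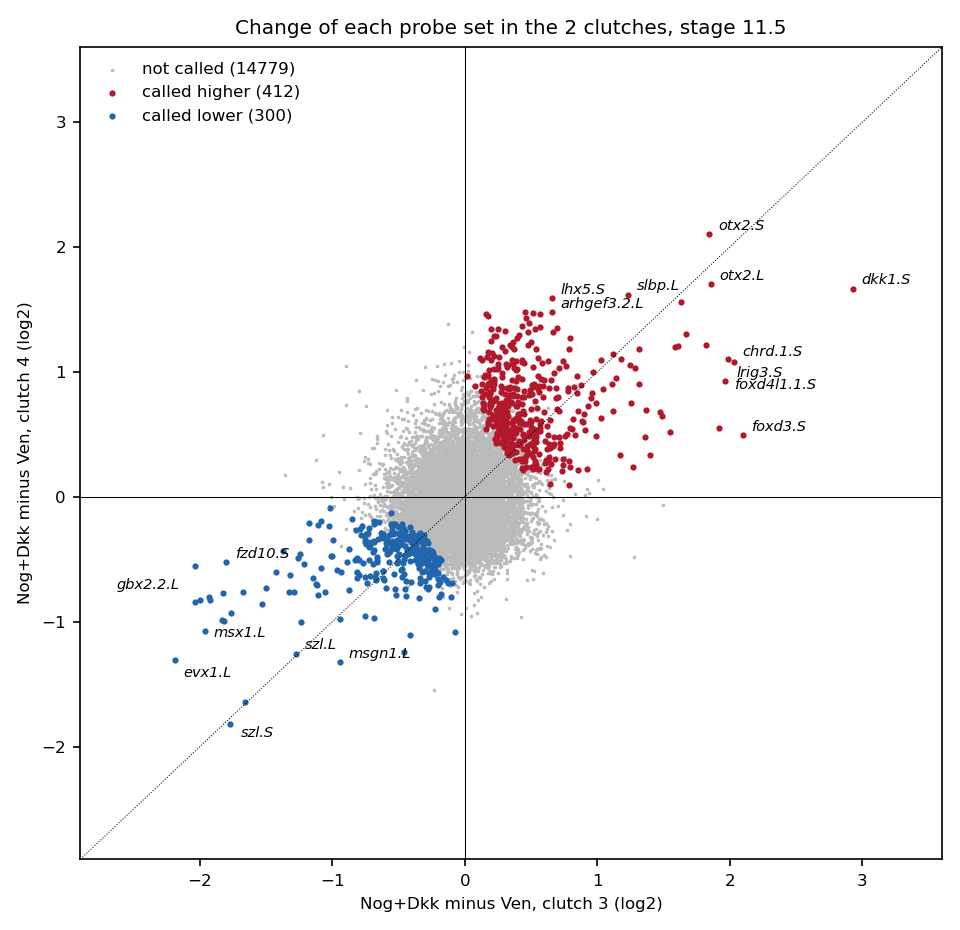
Change of every probe set (log2, Nog+Dkk minus Ven) in clutch 3 on the horizontal axis and in clutch 4 on the vertical axis at stage 11.5. Red points are the 412 probe sets called higher and blue points the 300 called lower. dkk1.S, foxd3.S and foxd4l1.1.S lie under the diagonal and gbx2.2.L and msx1.L above it, where the change in clutch 3 was the larger, and otx2.S and szl.S lie near it.

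Array medians of the 4 samples lay between 6.65 and 6.68, and those of all 20 between 6.65 and 6.90. Marker genes of the organizer and of ventral tissue changed in opposite directions. They recur in the gene lists below, so they describe the response and do not check the labels. Of 8 dorsal organizer marker genes 6 were called higher in Nog+Dkk, and their summed linear signal was 3117 and 3490 in Nog+Dkk against 1339 and 1848 in Ven (clutches 3 and 4). Of 9 ventral marker genes 7 were called lower, with sums of 2035 and 2162 against 3528 and 3148. The sum of 27 epidermal marker genes was 13029 and 14081 in Nog+Dkk and 15367 and 13169 in Ven, and that of 8 endodermal markers 3303 and 4520 against 3393 and 4219. In both sets the ranges of the conditions overlapped. The 4 blood markers stayed between 196 and 234 in sum in the 4 samples.

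dkk1.S, 1 of the 2 injected genes, read 8.09 and 7.74 in the Nog+Dkk samples of clutches 3 and 4 and 5.16 and 6.08 in the Ven samples. Both Nog+Dkk values stood above both Ven values, and the change was 2.30 ± 0.33 (adjusted p = 0.00099), or 4.91-fold. In tissue that received dkk-1 alone the change was 2.1, and in tissue that received noggin alone it was -0.22. nog.L, the other injected gene, read 5.25 and 5.75 in Nog+Dkk and 4.35 and 5.15 in Ven. The Nog+Dkk samples were again above Ven in each clutch and did not overlap with it, with a change of 0.75 ± 0.11 (adjusted p = 0.0015). The endogenous dorsal level of nog.L was higher than the level reached here, since its change in Dor was 2.14. The array cannot tell plasmid transcript from endogenous transcript, so neither gene is evidence of a response. dkk1.S serves as a check of the labels. Of the BMP antagonist genes described next, nog.L among them, 0 were called higher in Nog+Dkk than in Dkk, which received no noggin plasmid. nog.L therefore does not check the noggin label.

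By limma, the calls in the BMP antagonist list were rises only, and those in the Wnt antagonist list went both ways. Of 11 BMP antagonist genes measured, limma called 3 higher and 0 lower (3 higher and 3 lower at an unadjusted p under 0.05, 1 and 0 by rank products), with a median change of 0.06 against -0.03 over all 7531 genes with 1 symbol. The 3 were the injected nog.L, chrd.1.S and fst.L, which codes for follistatin (0.37, adjusted p = 0.091, with Nog+Dkk at 5.71 and 5.56 and Ven at 5.07 and 5.46). Without clutch 3 fst.L was at 0.10 and not called (adjusted p = 0.72). Of 14 Wnt antagonist genes, 4 rose and 3 fell, the falls being those of szl.L, szl.S and kremen2.S. The szl genes are also on the BMP4 synexpression list and are described with it. Beside the injected dkk1.S, sfrp2.S rose by 0.98 ± 0.12 (adjusted p = 0.00014), frzb.L by 0.70 ± 0.16 (adjusted p = 0.025) and frzb2.L by 0.64 ± 0.17 (adjusted p = 0.050), all of them coding for secreted proteins with a frizzled-like domain that bind Wnts. The calls of frzb.L (0.71, adjusted p = 0.12) and frzb2.L (0.20, adjusted p = 0.70) were lost without clutch 4, and the other probe set of frzb2.L was at 0.18 and not called. kremen2.S, a co-receptor for Dkk proteins, read 3.76 and 3.76 in Nog+Dkk and 5.08 and 4.52 in Ven, so the conditions did not overlap (-1.04 ± 0.16, adjusted p = 0.0015).

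The group that moved most as a whole was the organizer's transcription factors. Of 20 genes measured, 13 rose and 0 fell by limma (15 and 1 at an unadjusted p under 0.05, 9 and 0 by rank products), and the median change of the 20 was 0.89. It was 1.07 in clutch 3 and 0.64 in clutch 4, and 10 of the 13 calls held in both fits that left out a clutch. The clutches differed on the control side. In Ven, 15 of the 20 genes read higher in clutch 4 than in clutch 3 (median difference 0.30), while in Nog+Dkk 8 of 20 did (-0.10) and in Dor 12 of 20 (0.09). Over all genes the median clutch difference in Ven was -0.02. The part that this higher Ven level plays in the smaller change of clutch 4 was not tested.

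The largest changes of this group were those of the homeobox genes otx2.S and otx2.L, with the forkhead gene foxd4l1.1.S (1.45) next. otx2.S, which codes for a homeodomain factor of the forebrain and midbrain territory, read 8.93 and 9.62 in Nog+Dkk and 7.09 and 7.51 in Ven. The Nog+Dkk values exceeded the Ven values by nearly the same amount in each clutch, 1.97 ± 0.20 on average (adjusted p = 3.2e-05), or 3.93-fold. otx2.L was measured by 2 probe sets, with changes of 1.78 ± 0.17 and 1.48 ± 0.18 (adjusted p = 3.2e-05 and 0.00014). crx.L, also known as otx5 and expressed in the organizer and head mesoderm, read 10.18 and 10.40 in Nog+Dkk and 8.59 and 9.20 in Ven, a change of 1.39 ± 0.12 (adjusted p = 2.8e-05). Its copy crx.S rose by 1.11 ± 0.13 and 1.03 ± 0.15 on its 2 probe sets. In all of these the pair of Nog+Dkk samples lay above both Ven samples.

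LIM homeobox genes rose as well. lhx1.L, which codes for an organizer factor needed for head formation, read 7.63 and 8.36 in Nog+Dkk and 6.32 and 7.18 in Ven. Each Nog+Dkk sample was above both controls, with a change of 1.25 ± 0.14 (adjusted p = 1e-04). Its relative lhx5.S, a marker of the anterior neural plate, rose by 0.90 ± 0.11 and 1.12 ± 0.18 on 2 probe sets (adjusted p = 0.00014 and 0.0018). hesx1.L, a homeobox repressor of the most anterior territory, rose by 0.90 (adjusted p = 0.0022), whereas its copy hesx1.S was at 0.25 and not called.

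Not every head organizer gene passed the test. goosecoid, the homeobox gene that marks the head organizer, was not called on any of its 4 probe sets. gsc.L read 5.94 and 5.82 in Nog+Dkk and 5.58 and 5.14 in Ven (0.52 ± 0.18, adjusted p = 0.15), its other probe set was at -0.20, and gsc.S was at 0.10 ± 0.14 (adjusted p = 0.78). A probe set that the platform table assigns to both copies was at 0.57 ± 0.21 (adjusted p = 0.17), with 1.00 in clutch 3 and 0.14 in clutch 4. In Dor the changes of gsc.L and gsc.S were 2.12 and 1.46. cer1.S, which codes for the multivalent antagonist Cerberus of the leading-edge endoderm, was at 0.12 ± 0.18 (adjusted p = 0.79). In the anterior and head list of 28 genes, 10 rose and 0 fell (11 and 0 at an unadjusted p under 0.05, 6 and 0 by rank products), with a median of 0.17. The 10 include the injected dkk1.S. The eye-field genes rax.L, rax.S, pax6.L, six3.L, six3.S, six6.L and six6.S were between -0.21 and 0.09, and none of these was called.

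Secreted organizer proteins gave a similar picture. chrd.1.S, which codes for the BMP antagonist Chordin, read 9.08 and 10.02 in Nog+Dkk and 7.26 and 8.80 in Ven on one probe set. Its Ven level was far higher in clutch 4 than in clutch 3, yet the conditions did not overlap, and the change was 1.52 ± 0.25 (adjusted p = 0.0021). The other probe set gave 1.55 ± 0.24. admp.S, which codes for a BMP-type ligand made by the organizer itself, read 9.39 and 9.82 in Nog+Dkk against 7.78 and 8.61 in Ven. This was a rise of 1.41 ± 0.22 (adjusted p = 0.0015), and of 1.13 ± 0.27 on its other probe set. nodal.L, a TGF-beta ligand gene, read 5.55 and 5.33 against 4.65 and 4.67. It was higher in Nog+Dkk in each clutch (0.78 ± 0.17, adjusted p = 0.020, and 0.66 with adjusted p = 0.12 without clutch 3). Over 18 organizer signal genes 7 rose and 1 fell, with a median of 0.06, and 3 of the 7 rises held in both fits that left out a clutch. The 7 include the injected nog.L.

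Several forkhead genes of the trunk organizer and early neural ectoderm rose too, although foxd4l1.2.L was at 0.41 and not called (adjusted p = 0.15). foxd4l1.1.S, a forkhead factor that keeps neural ectoderm immature, read 9.46 and 9.01 in Nog+Dkk and 7.49 and 8.08 in Ven. Both treated samples lay above both controls, and the change was 1.45 ± 0.19 (adjusted p = 0.00027). foxa4.S, a forkhead factor of the dorsal mesoderm and floor plate, read 9.10 and 8.95 against 7.61 and 8.30, a change of 1.07 ± 0.16 (adjusted p = 0.0011), and foxa4.L rose by 0.83 ± 0.13. foxd3.S read 7.94 and 6.66 against 5.84 and 6.17. This gene, which acts in dorsal mesoderm and later in neural crest, was high in clutch 3 and only a little above Ven in clutch 4. Its change was 1.3 ± 0.24 (adjusted p = 0.0051) but 0.50 (adjusted p = 0.11) without clutch 3, and foxd3.L went from 1.24 ± 0.22 to 0.55 (adjusted p = 0.18). The notochord homeobox gene not.L rose by 0.87 ± 0.17 and not.S by 0.53 ± 0.12, the latter call being lost without clutch 3 (0.43, adjusted p = 0.13).

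Neural plate genes showed rises of mostly smaller size. Of 29 genes 9 rose and 0 fell (12 and 0 at an unadjusted p under 0.05, 2 and 0 by rank products), with a median change of 0.24. lrig3.S, a leucine-rich repeat membrane protein, had the largest change of the list and read 7.40 and 7.19 in Nog+Dkk and 5.42 and 6.09 in Ven. The study had picked this probe set from clusters of these same arrays, so its place on the list is not independent of its call. The conditions were well apart on this probe set (1.55 ± 0.18, adjusted p = 0.00013), while a dim second probe set of the gene, near 3 in all 4 samples, gave 0.39 (adjusted p = 0.044). The pan-neural factor sox2.L read 9.77 and 9.79 against 9.08 and 8.99 on its brighter probe set. Both Nog+Dkk values were above both Ven values, with a change of 0.74 ± 0.14 (adjusted p = 0.0057), and 1.03 ± 0.16 on the dimmer one. zic1.S, a zinc-finger factor of the neural plate border, rose by 0.89 ± 0.13 and 0.87 ± 0.12 on 2 probe sets, and irx2.L by 0.76 ± 0.14. The forkhead gene foxb1.S rose by 1.03 ± 0.28 (adjusted p = 0.057), which was 0.52 (adjusted p = 0.17) without clutch 3. Levels of the second probe set of lrig3.S were called in neither fit that left out a clutch (0.41 and 0.37, adjusted p = 0.12 and 0.25).

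**Figure D2:**
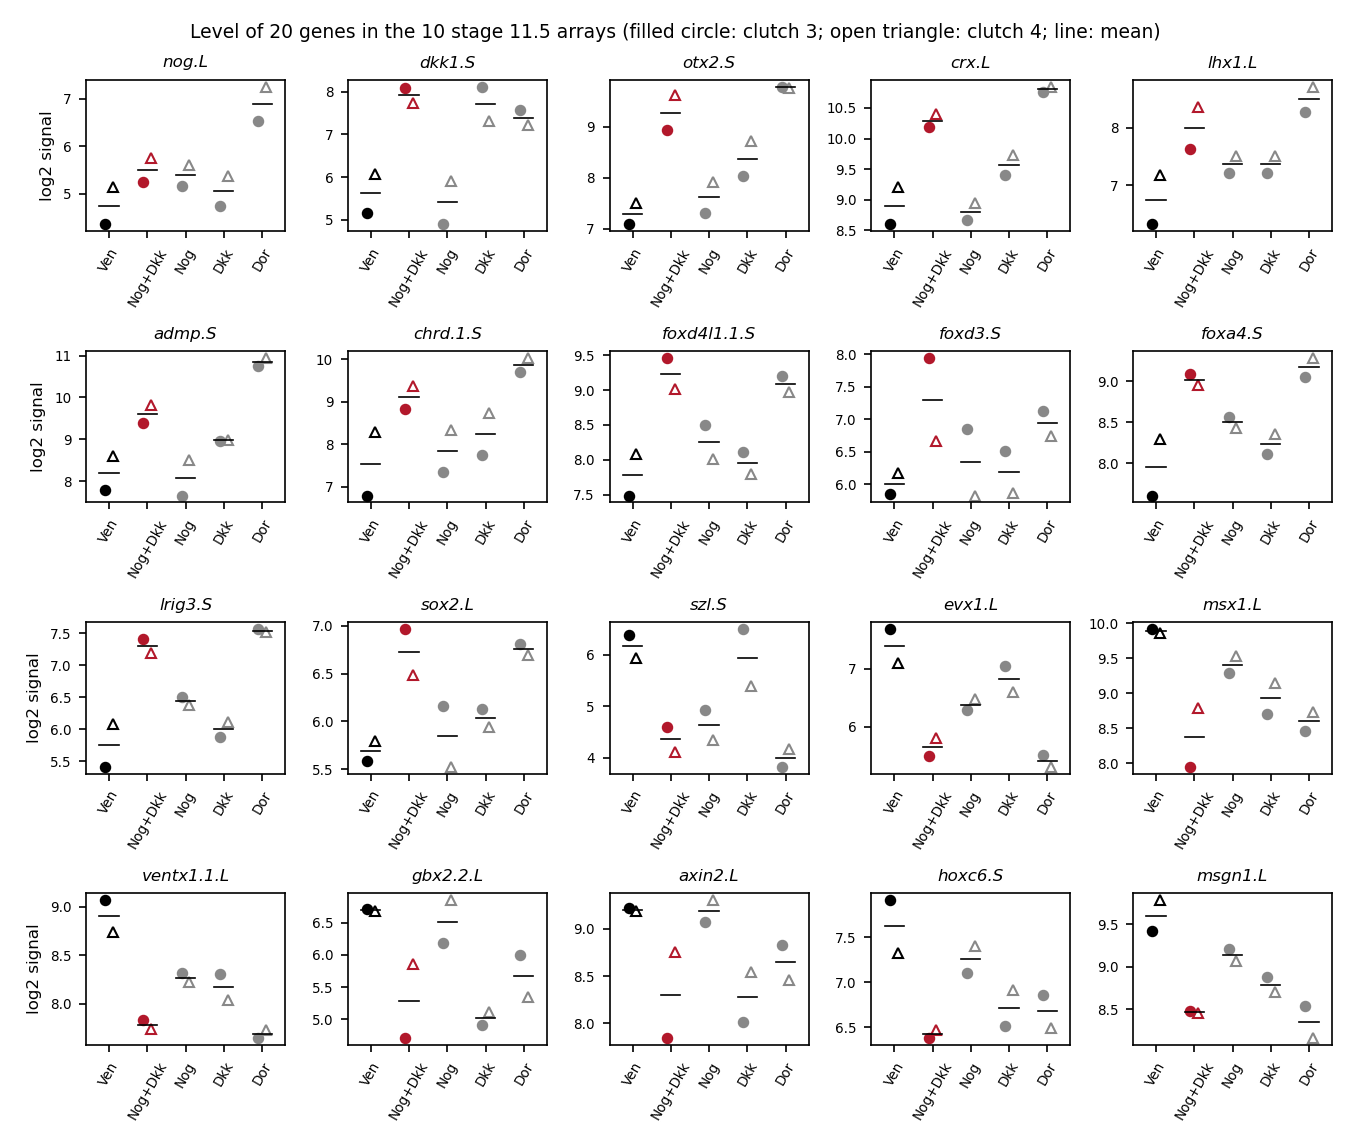
Log2 signal of 20 genes in the 10 arrays of stage 11.5, 1 panel a gene and 1 column a condition, with the probe set of largest change where a gene has several. Filled circles are clutch 3, open triangles clutch 4 and lines their mean. In the first 12 panels both Nog+Dkk values (red) lie above both Ven values (black), and in the last 8, from szl.S to msgn1.L, below them. The genes were chosen with their values known, so the panels do not show how common such a separation is on the array.

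On the ventral side a list of BMP4 synexpression and ventral genes fell in part. It joins the synexpression group, the genes that share the ventral pattern of bmp4, with others, among them bmp2 and hes5 genes. Both of its rises were of these others, as were the falls of hes5.3.L and hes5.6.L. Of 41 genes on this list 13 fell and 2 rose, with a median of -0.24. Of the 13 falls 11 were larger in clutch 3 and 11 held in both fits that left out a clutch, while neither rise did. szl.S, which codes for Sizzled, a secreted frizzled-related protein known to inhibit the Chordin protease, read 4.61 and 4.12 in Nog+Dkk and 6.38 and 5.94 in Ven. Its 2 conditions were far apart in both clutches alike (-1.80 ± 0.34, adjusted p = 0.0073), and szl.L was at -1.26 ± 0.28 (adjusted p = 0.020). evx1.L, a homeobox gene of ventral and posterior mesoderm, read 5.50 and 5.80 against 7.68 and 7.11. All Ven values exceeded all Nog+Dkk values, and the change was -1.75 ± 0.17 (adjusted p = 3.2e-05), or 3.35-fold.

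The BMP-responsive Msx and Vent homeobox genes fell with them. This does not tell which of the inhibitors lowered them. msx1.L, and msx2.L on the probe set that fell, were also called lower in Nog+Dkk than in Nog. msx1.L read 7.95 and 8.79 in Nog+Dkk and 9.91 and 9.86 in Ven. Both Nog+Dkk values were below both controls, that of clutch 3 by more (-1.52 ± 0.23, adjusted p = 0.0014). msx1.S was at -1.01 ± 0.16. One probe set of msx2.L read 7.38 and 8.52 against 9.30 and 9.35, a change of -1.38 ± 0.22 (adjusted p = 0.0017), whereas the other was at 0.03 and not called (adjusted p = 0.95). ventx1.1.L likewise read 7.83 and 7.74 against 9.07 and 8.74 on one probe set (-1.12 ± 0.17, adjusted p = 0.0015) and gave -0.03 on the other. Vent proteins repress organizer genes on the ventral side. ventx3.2.S was at -0.77 ± 0.16, ventx2.1.S at -0.58 ± 0.11 and ventx2.1.L at -0.52 ± 0.13, all called, although ventx2.1.L was not without clutch 3 (-0.46, adjusted p = 0.12).

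The BMP ligand and other reporters of its pathway moved less. bmp4.S read 6.95 and 6.74 in Nog+Dkk against 6.98 and 7.05 in Ven, a change of -0.17 ± 0.13 (adjusted p = 0.54). bambi.L, a BMP pseudoreceptor that is a standard member of the synexpression group, was at -0.66 and missed the threshold (adjusted p = 0.14), and its copy bambi.S was at -0.05. The feedback inhibitors smad6.L and smad7.L were at -0.12 and -0.31 and the id genes between -0.35 and 0.29, none of them called. The 2 genes of the list that rose were hes5.2.L (0.53, adjusted p = 0.034) and bmp2.L (0.35, adjusted p = 0.074). Without clutch 3 hes5.2.L was at 0.22 (adjusted p = 0.44) and bmp2.L at 0.35 (adjusted p = 0.19). Without clutch 4 bmp2.L was at 0.36 (adjusted p = 0.27).

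Epidermal genes changed little. Of 44 non-neural ectoderm and epidermal genes 0 rose and 2 fell by limma (3 and 6 at an unadjusted p under 0.05, 0 and 1 by rank products), and the median was -0.09. dlx2.S, a distal-less homeobox gene, read 5.65 and 4.70 in Nog+Dkk against 6.33 and 5.68 in Ven. It was lower within each clutch, although the Nog+Dkk value of clutch 3 came close to the Ven value of clutch 4 (-0.83 ± 0.14, adjusted p = 0.0023). tp63.L, the regulator of basal epidermis, read near the bottom of the scale at 3.35 and 3.35 against 3.93 and 3.88 (-0.55 ± 0.12, adjusted p = 0.020, and -0.58 with adjusted p = 0.12 without clutch 4). Keratin genes ranged from -0.43 for krt70.L to 0.38 for krt18.1.S without a call.

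Targets of canonical Wnt signalling fell in part too, on a list that shares members with others. Its falls gbx2.2.L and gbx2.1.S are also on the posterior neural plate list, and msgn1.L and tbx6.L on the paraxial mesoderm list. Of 30 genes 7 fell and 1 rose, with a median of -0.27, and 4 of the 7 falls held in both fits that left out a clutch. gbx2.2.L, a homeobox factor at and behind the midbrain-hindbrain border, read 4.71 and 5.86 in Nog+Dkk and 6.71 and 6.68 in Ven. The Ven values nearly coincided and the Nog+Dkk values were lower by different amounts (-1.41 ± 0.26, adjusted p = 0.0049), and the gene's other probe set gave -0.83 ± 0.20 (adjusted p = 0.036). axin2.L, the feedback inhibitor that is a general Wnt reporter, read 7.84 and 8.76 against 9.22 and 9.19. It was below both controls in each clutch (-0.90 ± 0.20, adjusted p = 0.018), but at -0.43 (adjusted p = 0.14) without clutch 3. axin2.S was not called (-0.50, adjusted p = 0.24), with Nog+Dkk at 8.39 and 9.17 and Ven at 9.39 and 9.17, so that only clutch 3 differed. Without clutch 4 it was at -1.01 (adjusted p = 0.0010).

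Other genes of Wnt and posterior programmes showed the same partial pattern. znf703.L, a zinc-finger repressor of posterior tissue, read 8.53 and 8.91 in Nog+Dkk against 9.82 and 9.67 in Ven, a change of -1.03 ± 0.16 (adjusted p = 0.0015). fzd10.S, a Wnt receptor gene, read 6.05 and 7.31 against 7.85 and 7.83. Its fall was much larger in clutch 3, and the change of -1.16 ± 0.21 (adjusted p = 0.0046) became -0.52 (adjusted p = 0.11) without that clutch. The ligand wnt8a.L, which drives ventrolateral Wnt signalling, read 10.35 and 10.15 against 10.49 and 10.45 and was not called (-0.22 ± 0.14, adjusted p = 0.45). Neither were the cdx genes of the list, cdx4.L at -0.55 and cdx1.S at -0.32. With 1 probe set a gene, the single rise of the Wnt target list was that of ccnd1.S (0.44, adjusted p = 0.059), at 0.27 without clutch 3. fzd7.L, also on the list, had calls on other probe sets and is described below.

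Hox genes, which set posterior identity, were lower where they changed. Of 23 Hox and Cdx genes 0 rose and 7 fell by limma (0 and 9 at an unadjusted p under 0.05, 0 and 2 by rank products), with a median of -0.24, and 2 of the 7 falls held in both fits that left out a clutch. hoxc6.S read 6.38 and 6.47 in Nog+Dkk and 7.91 and 7.33 in Ven. The treated samples agreed closely with each other and lay below both controls (-1.19 ± 0.18, adjusted p = 0.0013). The gene's second probe set was at -0.67 ± 0.16 (adjusted p = 0.030) but at -0.35 (adjusted p = 0.20) without clutch 3. hoxa7.L read 4.29 and 4.20 against 5.34 and 4.96 (-0.91 ± 0.11, adjusted p = 0.00021). A probe set without a symbol in the platform table, which the study annotates as HoxD1, read 7.57 and 8.56 against 9.24 and 9.32 (-1.22 ± 0.20, adjusted p = 0.0020), and the conditions did not overlap. Over 18 posterior neural plate genes 6 fell and 1 rose, with a median of -0.21, and 5 of the 6 falls held in both fits that left out a clutch.

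Mesodermal genes went both ways. Of 26 paraxial mesoderm genes 2 fell and 5 rose, with a median of -0.12, and both falls but 1 of the 5 rises held in both fits that left out a clutch. msgn1.L, the bHLH factor of presomitic mesoderm, read 8.48 and 8.46 in Nog+Dkk and 9.42 and 9.78 in Ven. Both Ven samples were clearly higher (-1.13 ± 0.14, adjusted p = 0.00022), and tbx6.L, a T-box factor of the same tissue, was at -0.73 ± 0.17 (adjusted p = 0.028). eomes.L, a T-box factor that is stronger dorsally at gastrula, rose by 0.64 ± 0.15 (adjusted p = 0.030), and by 0.50 (adjusted p = 0.11) without clutch 3. The other 4 that rose were hes7.1.L, pax3.L (0.62, the call that held, on 1 of 4 probe sets), ripply2.2.S (0.60) and fgf8.L (0.40). The probe sets of pax3.L differed in direction, from -0.46 to 0.62, and pax3.S was at -0.58 and not called (adjusted p = 0.26). The muscle determination genes myod1.S and myf5.L were at -0.38 and -0.39 and not called. Of 25 ventral mesoderm and blood genes, foxf1.L, a forkhead gene of lateral plate mesoderm, alone was called. It read 5.14 and 5.53 against 6.29 and 6.18 (-0.90 ± 0.14, adjusted p = 0.0017). The list held 1 gene at an unadjusted p under 0.05 above Ven and 4 below it, 0 and 1 by rank products, and its median was -0.16.

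Hairy/Enhancer-of-split (Hes) repressors, many of them targets of Notch signalling, went both ways. Of 22 genes on the list 3 fell and 4 rose, with a median of -0.10, and 2 of the 3 falls and 0 of the 4 rises held in both fits that left out a clutch. hes5.6.L read 6.51 and 6.05 in Nog+Dkk and 7.26 and 7.0 in Ven (-0.85 ± 0.15, adjusted p = 0.0046), and hes5.3.L was at -0.74 ± 0.15 (adjusted p = 0.012). hes7.1.L, another Hes repressor gene, read 7.82 and 7.03 against 6.65 and 6.69. It was above Ven in each clutch, mostly in clutch 3 (0.75 ± 0.20, adjusted p = 0.050), and at 0.34 (adjusted p = 0.39) without it. A second probe set gave 0.72 ± 0.20 (adjusted p = 0.062), and it was called in neither fit that left out a clutch (0.53 and 0.90, adjusted p = 0.29 and 0.12).

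Endodermal genes showed no common direction, with 3 rises and 4 falls among 36 and a median of -0.02, and 1 of the 4 falls and 0 of the 3 rises held in both fits that left out a clutch. The Mix family gene bix1.3.S read 6.21 and 6.38 in Nog+Dkk against 6.82 and 7.05 in Ven (-0.64 ± 0.12, adjusted p = 0.0080). pnhd.L, which codes for the secreted protein Pinhead, was at -0.67 ± 0.18 (adjusted p = 0.057) and -0.51 on its other probe set, which missed the threshold. Without clutch 3 the call of its first probe set was lost (-0.51, adjusted p = 0.27), and likewise without clutch 4 (-0.83, adjusted p = 0.12). mixer.L, a homeobox gene of the endoderm, was at 0.65 ± 0.19 (adjusted p = 0.082) and at 0.48 (adjusted p = 0.23) without clutch 4. The sox17 and gata genes of the list were between -0.09 and 0.40, and none was called.

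Receptors and genes of cell movement also changed. fzd8.S, a frizzled receptor gene of the organizer, read 7.52 and 7.71 in Nog+Dkk and 6.47 and 6.84 in Ven on one probe set, with no overlap (0.95 ± 0.19, adjusted p = 0.011), and was at 0.28 and not called on the other. fzd7.L, a receptor gene with roles in convergent extension, was measured by 5 probe sets, of which 4 were called at changes from 0.50 to 1.01. The brightest of the 5 was at 0.29 ± 0.10 and not called (adjusted p = 0.17), and of the 4 only the one at 1.01 ± 0.13 was still called without clutch 4, the others being at 0.67, 0.50 and 0.46 (adjusted p = 0.10, 0.13 and 0.16). fzd4.S rose by 1.01 ± 0.21, and by 0.57 (adjusted p = 0.13) without clutch 4. Over 10 frizzled genes 2 rose and 1 fell. In this count, and in those of the Wnt target and convergent extension lists, fzd7.L stands as not called, by its brightest probe set.

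In the list of 29 genes of convergent extension and planar polarity, limma called 3 higher and 0 lower (7 and 1 at an unadjusted p under 0.05, 1 and 0 by rank products), with a median of 0.05. arhgef3.2.L, a guanine-nucleotide exchange factor, read 4.46 and 5.45 in Nog+Dkk against 3.81 and 3.97 in Ven. It was above both controls, by more in clutch 4 (1.07 ± 0.16, adjusted p = 0.0013). The rank products call of the list was this gene's. The study had picked arhgef3.2.L too from clusters of these arrays, so its place on the list is not independent of its call. prickle1.S, a planar polarity gene, read 9.99 and 9.83 against 9.18 and 9.20 (0.72 ± 0.14, adjusted p = 0.0089). The Nog+Dkk samples were clearly the higher. prickle1.L was at 0.66 ± 0.12 (adjusted p = 0.0060), and at 0.49 (adjusted p = 0.10) without clutch 3.

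**Figure D3:**
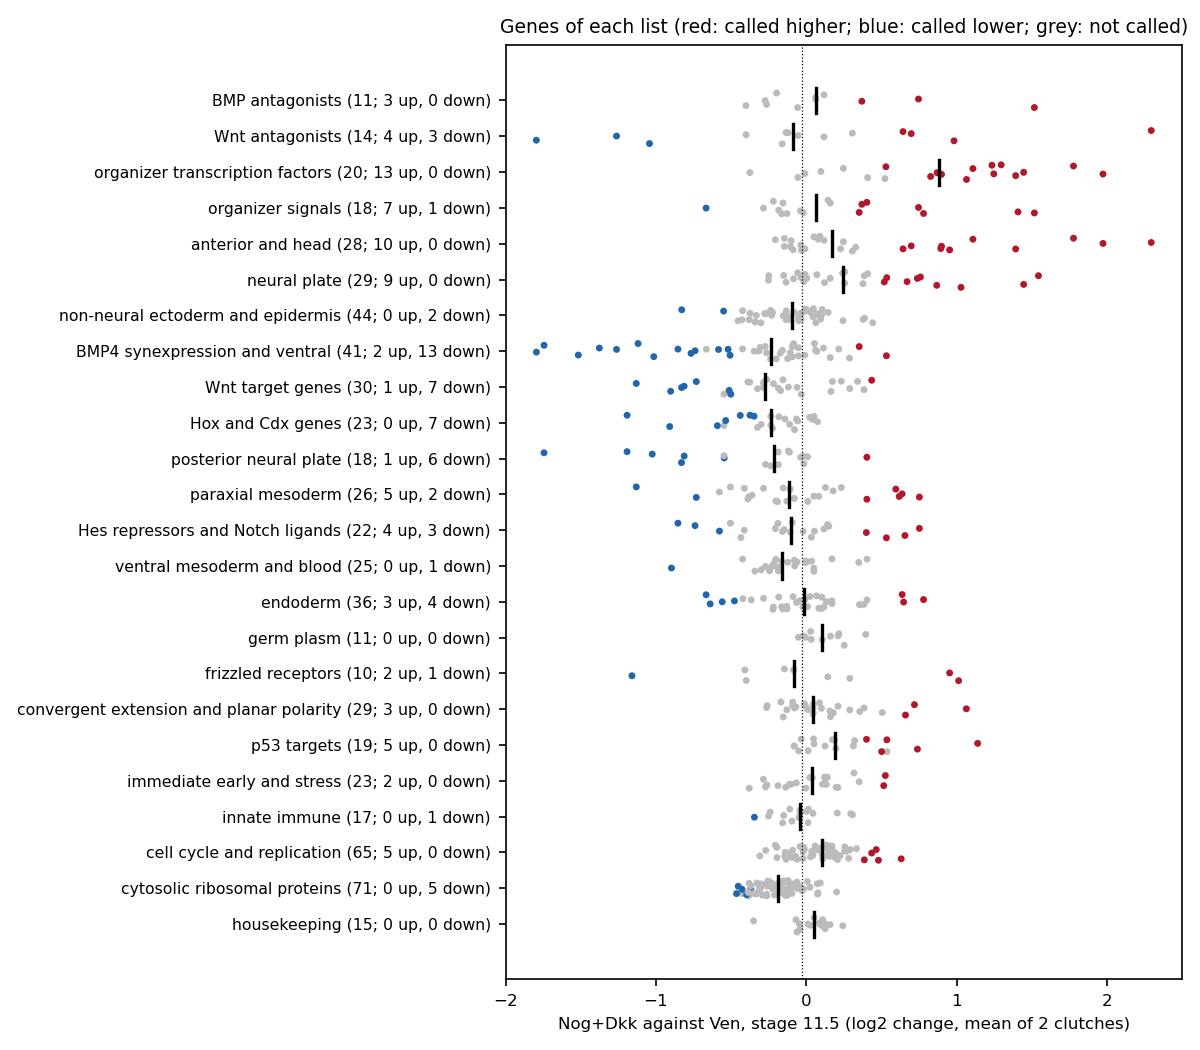
Change in Nog+Dkk against Ven (log2, mean of the 2 clutches) of the genes of 24 lists, 1 point a gene and 1 row a list, each gene by the probe set of highest mean. A gene on several lists has a point in each. Numbers beside a list are its genes measured and those called higher and lower, black bars are list medians and the dotted line is the median of all genes, -0.03. The organizer transcription factors, with a median of 0.89, stand furthest to the right, and the calls of the BMP4 synexpression, Wnt target, Hox and posterior lists lie mainly to the left.

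Genes outside the patterning programmes changed as well. ccng1.L, which codes for cyclin G1 and is a target of p53, read 10.32 and 10.55 in Nog+Dkk and 9.15 and 9.45 in Ven. Both Nog+Dkk samples were about 1 log2 unit above the controls (1.14 ± 0.18, adjusted p = 0.0015), while the change in Dor was 0.03. Of 19 p53 target genes limma called 5 higher and 0 lower (7 and 0 at an unadjusted p under 0.05, 1 and 0 by rank products), with a median of 0.19. The other 4 were plk2.S (0.74 ± 0.13), sesn1.L (0.54 ± 0.12), plk3.S (0.50 ± 0.15) and sesn2.L (0.40), and each lost its call in a fit that left out a clutch. Without clutch 3 plk2.S was at 0.49 (adjusted p = 0.11), sesn1.L at 0.41 (adjusted p = 0.15), plk3.S at 0.60 (adjusted p = 0.11) and sesn2.L at 0.26 (adjusted p = 0.34). Without clutch 4 plk3.S was at 0.41 (adjusted p = 0.39). The other probe set of sesn1.L was at 0.38 and not called (adjusted p = 0.37), and at 0.91 (adjusted p = 0.016) without clutch 4. prag1.S, which codes for a pseudokinase, read 6.86 and 6.53 against 5.72 and 5.58 (1.04 ± 0.12, adjusted p = 1e-04). Its levels did not overlap between the conditions, and its change in Dor was 0.05. Neither Ven nor Dor embryos received plasmid. What the plasmid itself contributes to the rises of ccng1.L and prag1.S was not tested. Of the 19 p53 target genes, 2 were called higher in Nog+Dkk than in Nog and 0 lower. Against Dkk, 0 were called in either direction.

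General programmes moved little, except that most ribosomal protein genes were somewhat lower. Of 65 cell cycle and replication genes 5 rose and 0 fell by limma (9 and 2 at an unadjusted p under 0.05, 0 and 0 by rank products), with a median of 0.11, and none of the 5 calls held in both fits that left out a clutch. Of 71 cytosolic ribosomal protein genes 0 rose and 5 fell by limma (0 and 22 at an unadjusted p under 0.05, 0 and 0 by rank products). Their median was -0.19, with -0.06 in clutch 3 and -0.34 in clutch 4, 64 of the 71 were below 0, and all 5 calls were lost without clutch 4. The median change of this list was -0.32 in Nog, -0.15 in Dkk and -0.07 in Dor. Of 15 housekeeping genes 0 were called by limma and 0 by rank products (1 above and 1 below Ven at an unadjusted p under 0.05), with a median of 0.05, and of 11 germ plasm genes 0 and 0 (1 and 0), with a median of 0.11. Of 23 immediate early and stress genes 2 rose, the dual-specificity phosphatase copies dusp1.L (0.53) and dusp1.S (0.52), both lost without clutch 3 (0.45 and 0.24, adjusted p = 0.15 and 0.44).

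Several large rises rested on a single probe set. The messenger RNA of slbp.L, the histone stem-loop binding protein, read 9.07 and 10.27 in Nog+Dkk and 7.84 and 8.65 in Ven on one probe set (1.43 ± 0.17, adjusted p = 0.00014) and 0.28 ± 0.10 without a call on a brighter one. For nup153.L (0.96 ± 0.21) and tp53bp2.L (0.96 ± 0.19) the other probe set was at 0.08 and 0.10. Without clutch 4 these were at 0.57 (adjusted p = 0.25) and 0.45 (adjusted p = 0.20). In contrast, all 3 probe sets of marchf8.L, a membrane ubiquitin ligase gene, were called, at 1.06 ± 0.13, 1.00 ± 0.18 and 0.58 ± 0.14, the last of them at 0.43 (adjusted p = 0.24) without clutch 3. Across the array, 166 of the 1293 genes with several probe sets had at least 1 called, and in 24 of the 166 every probe set was called.

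The series allows the combination to be set beside its parts. All changes that follow are relative to the same Ven arrays, so they share that reference, and a test of the difference was made directly between Nog+Dkk and the other condition within clutches. Set against Nog, the combination had 70 probe sets called higher (0.452%) and 32 lower (0.207%). Set against Dkk it had 42 higher (0.271%) and 10 lower (0.0646%). Set against Dor it had 24 higher (0.155%) and 59 lower (0.381%), and this total of 83 became 265 without clutch 3 and 212 without clutch 4.

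Compared with Noggin alone, 10 of the 20 organizer transcription factors and 9 of the 28 anterior and head genes, dkk1.S among these, were called higher in Nog+Dkk. Of 30 Wnt target genes 5 were called lower, and of 18 posterior neural plate genes 6. Of the 41 genes of the BMP4 synexpression list 5 were called lower than in Nog and 1 higher. The 5 include msx1.L and msx2.L, both calls being lost without clutch 3 (-0.74 and -0.58). otx2.S changed by 0.31 in Nog, 1.07 in Dkk and 1.97 in Nog+Dkk, and the difference between Nog+Dkk and Nog was 1.66 ± 0.20 (adjusted p = 0.00034). crx.L changed by -0.10, 0.67 and 1.39, with a difference of 1.49 ± 0.12 (adjusted p = 9.5e-06). For admp.S the changes were -0.12, 0.78 and 1.41 and the difference 1.52 ± 0.22 (adjusted p = 0.0020). Each of these genes was thus higher in the combination than in Nog in both clutches. On the falling side, gbx2.2.L changed by -0.18 in Nog, -1.68 in Dkk and -1.41 in Nog+Dkk, a difference from Nog of -1.23 ± 0.26 (adjusted p = 0.042). kremen2.S changed by 0.11, -0.84 and -1.04, a difference of -1.15 ± 0.16 (adjusted p = 0.0020), and fzd10.S by -0.12, -1.09 and -1.16, a difference of -1.04 ± 0.21 (adjusted p = 0.035) that was -0.49 and not called without clutch 3 (adjusted p = 0.39). For the same 3 genes the difference between Nog+Dkk and Dkk was 0.27 ± 0.26, -0.20 ± 0.16 and -0.07 ± 0.21, none of them called. Other genes of these groups were not called against Nog, such as cer1.S (0.04, adjusted p = 0.99), axin2.S (-0.62, adjusted p = 0.45) and cdx4.L (-0.78, adjusted p = 0.44). The calls of lhx1.L (0.63, and 0.41 with adjusted p = 0.38 without clutch 4) and axin2.L (-0.89, and -0.55 with adjusted p = 0.35 without clutch 3) were each lost in 1 of the fits that left out a clutch.

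Compared with Dkk-1 alone, 9 of the 20 organizer transcription factors and 4 of the 29 neural plate genes were called higher in Nog+Dkk, and 3 of the 41 genes of the BMP4 synexpression list lower. Many of these calls did not hold when a clutch was left out. That of otx2.S was lost in either fit (0.90 without clutch 3 and 0.91 without clutch 4). crx.S lost its call without clutch 3 (0.45), and lhx1.L (0.42) and irx2.L (0.54) lost theirs without clutch 4. foxd4l1.1.S changed by 0.46 in Nog, 0.17 in Dkk and 1.45 in Nog+Dkk, a difference from Dkk of 1.28 ± 0.19 (adjusted p = 0.0046). lrig3.S changed by 0.69, 0.25 and 1.55, a difference of 1.3 ± 0.18 (adjusted p = 0.0046). crx.L differed by 0.73 ± 0.12 (adjusted p = 0.018), but by 0.68 (adjusted p = 0.16) without clutch 3. The differences of foxa4.S (0.79, adjusted p = 0.044) and foxd3.L (1.21, adjusted p = 0.026) were likewise not called without clutch 3 (0.59 and 0.78, adjusted p = 0.24 and 0.27). evx1.L changed by -1.01 in Nog, -0.57 in Dkk and -1.75 in Nog+Dkk, a difference from Dkk of -1.17 ± 0.17 (adjusted p = 0.0046). Its fall was larger in the combination than in Nog too (-0.73 ± 0.17, adjusted p = 0.083), though not called without clutch 3 (-0.68, adjusted p = 0.19). szl.S changed by -1.52, -0.22 and -1.80, with a difference from Dkk of -1.58 ± 0.34 (adjusted p = 0.079) that lost its call without clutch 3 (-1.27, adjusted p = 0.42) or clutch 4 (-1.89, adjusted p = 0.13). Its difference from Nog was -0.27 ± 0.34 (adjusted p = 0.92). bmp4.S changed by -0.57 in Nog (adjusted p = 0.017), -0.21 in Dkk and -0.17 in Nog+Dkk. Its Nog+Dkk level differed from Dkk by 0.04 (adjusted p = 0.98) and from Nog by 0.40 ± 0.13 (adjusted p = 0.40).

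The Nog+Dkk change was tested directly, in either direction, against the sum of the log2 changes in Nog and Dkk. This test called 2 probe sets (0.0129%), hes7.1.L and sinhcaf.L. A sum of log2 changes corresponds to a product of fold changes. The SE of this test is larger than that of a difference between a pair of conditions, 0.30 against 0.22 for admp.S on its brighter probe set. A gene without a call is therefore not shown to equal the sum. hes7.1.L changed by -0.92 in Nog, -0.14 in Dkk and 0.75 in Nog+Dkk, and so lay 1.81 ± 0.28 above the sum (adjusted p = 0.058). A second probe set of hes7.1.L was 0.92 ± 0.28 above it and not called (adjusted p = 0.40). sinhcaf.L, a component of a histone deacetylase complex, changed by -0.47, -0.38 and 0.13 (0.98 ± 0.16, adjusted p = 0.058), with no call without clutch 3 (0.88, adjusted p = 0.45). Without clutch 3 this test called 19 probe sets and without clutch 4 it called 45. foxd4l1.1.S, although higher in the combination than in either single treatment, was not called by it.

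**Figure D4:**
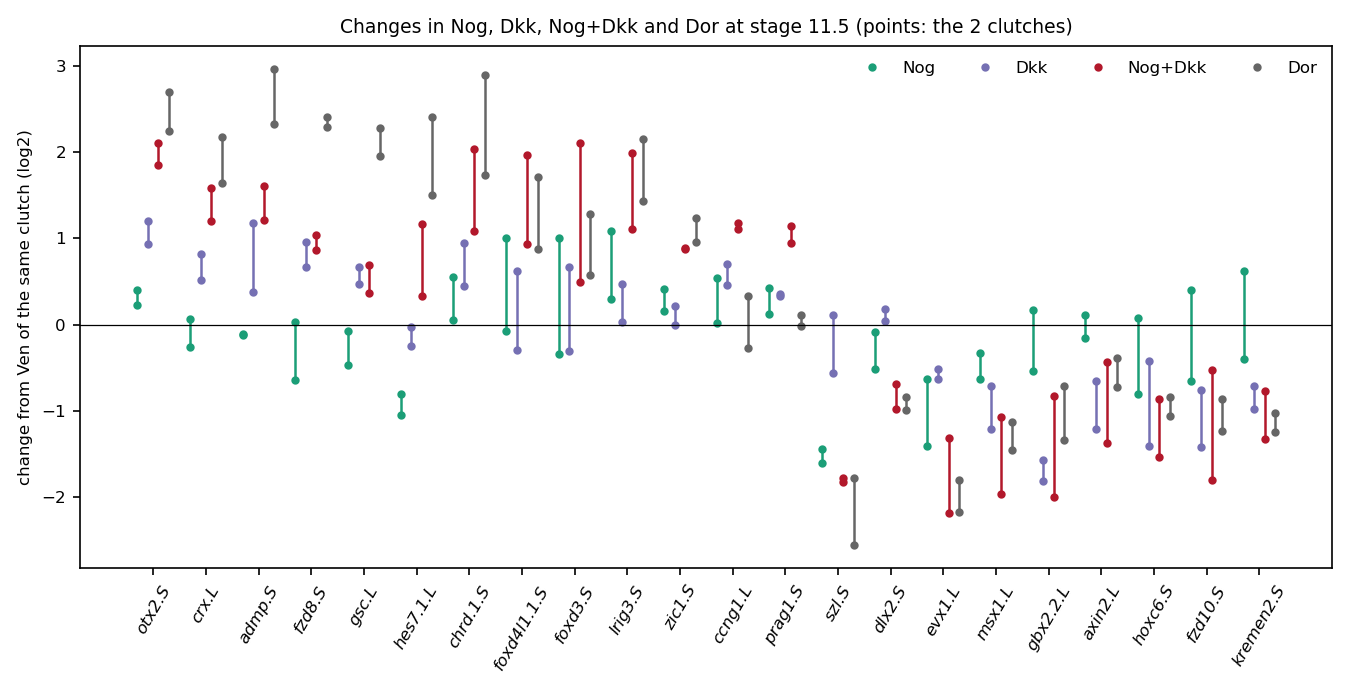
Change from the Ven sample of the same clutch (log2) of 22 genes in Nog, Dkk, Nog+Dkk and Dor at stage 11.5. Points are the 2 clutches, joined by a line, and the 4 conditions of a gene share its Ven arrays. In otx2.S, crx.L and admp.S the Nog+Dkk points lie above those of Nog and below those of Dor, and in gbx2.2.L and kremen2.S the Nog+Dkk mean is nearer to that of Dkk than to that of Nog.

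Compared with dorsal tissue, several organizer genes were lower in Nog+Dkk. frzb2.L differed from Dor by -2.26 ± 0.12 on 1 probe set (adjusted p = 3.6e-09) and by -2.19 ± 0.17 on the other (adjusted p = 1.1e-06). gsc.L differed by -1.59 ± 0.18 (adjusted p = 0.00022) and gsc.S by -1.37 ± 0.14 (adjusted p = 4.9e-05). fzd8.S, the receptor gene that Dor raised by 2.34 over Ven, differed by -1.39 ± 0.19 (adjusted p = 0.0015). admp.S differed by -1.72 ± 0.27 and -1.23 ± 0.22 on its 2 probe sets (adjusted p = 0.0032 and 0.0091). On the probe sets given here the Nog+Dkk mean stood between those of Ven and Dor. For gsc.S it was close to Ven (0.10 ± 0.14), and the other gsc.L probe set was at -0.20 against Ven. For otx2.S the difference from Dor was -0.49 ± 0.20 and for crx.L -0.51 ± 0.12, neither of them called (adjusted p = 0.56 and 0.11), and for foxd4l1.1.S it was 0.15 ± 0.19 (adjusted p = 0.99). Higher than in Dor were ccng1.L by 1.11 ± 0.18 (adjusted p = 0.0042), prag1.S by 0.99 ± 0.12 (adjusted p = 0.00022) and the ventral ligand wnt8a.L by 0.84 ± 0.14 (adjusted p = 0.0049).

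The same combination was also measured at the start of gastrulation, stage 10, in clutches 1 and 2, which means that an effect of stage cannot be told apart from one of clutch or of the way the embryos were cut. The change at stage 11.5 was above that at stage 10 for 9 probe sets (0.0581%) and below it for 13 (0.0839%). aplnr.S, an apelin receptor gene of the mesoderm, read 9.20 and 7.98 in Nog+Dkk and 7.47 and 5.6 in Ven at stage 10, and 7.65 and 7.78 against 7.78 and 8.06 at stage 11.5. It was higher in Nog+Dkk at the early stage in both clutches and at its Ven level at the late stage, a difference in change of -2.26 ± 0.24 (adjusted p = 0.00015). aplnr.L behaved alike (-1.57 ± 0.16, adjusted p = 0.00015). At stage 10 aplnr.S also read 8.82 and 7.67 in Nog and 8.50 and 7.65 in Dkk, against 7.17 and 5.61 in Dor. The early rise was thus shared by every plasmid-injected condition, and Ven and Dor embryos received no plasmid. What the plasmid itself contributes was not tested. evx1.L was near 4 in all stage 10 samples, with a change there of 0.27, and its difference of -2.02 ± 0.24 (adjusted p = 0.00081) lost its call without clutch 1 (-1.93, adjusted p = 0.44) or clutch 2 (-2.11, adjusted p = 0.20). Without clutch 1 the test called 2 probe sets and without clutch 2 also 2, while it called 272 without clutch 3 and 146 without clutch 4. dkk1.S (2.08 at stage 10), foxd4l1.1.S (1.31) and ccng1.L (1.84) showed no called difference between the stages, and the median change of the 20 organizer transcription factors was 0.44 at stage 10.

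**Figure D5:**
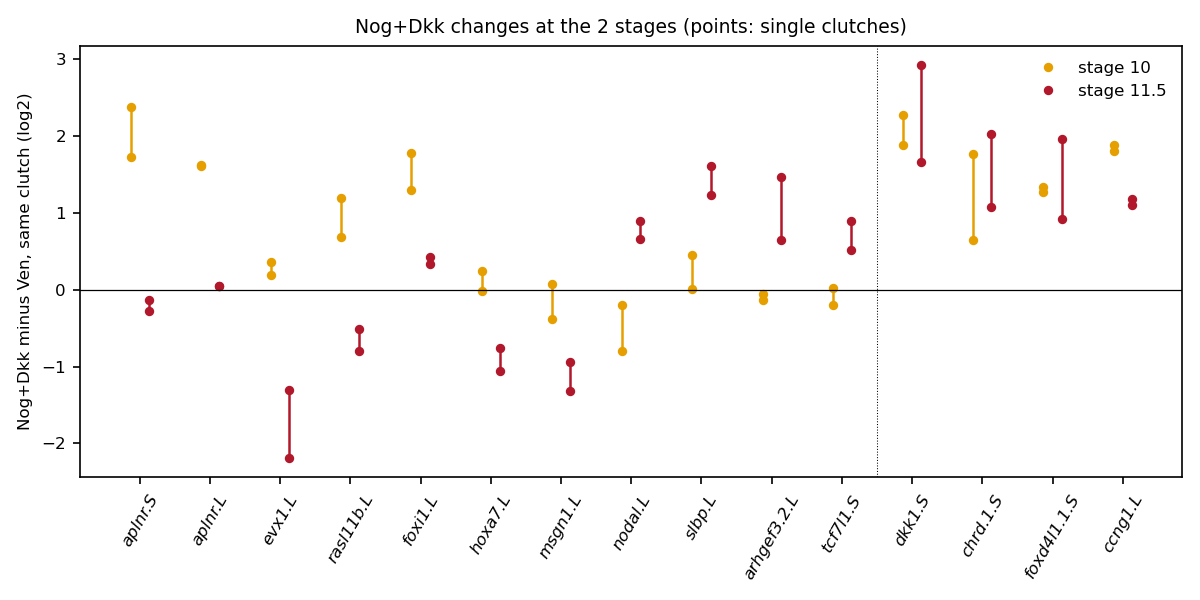
Change in Nog+Dkk against Ven (log2) at stage 10 (clutches 1 and 2) and stage 11.5 (clutches 3 and 4), points being single clutches joined by a line. The 11 genes left of the dotted line were called different between the stages, with aplnr.S falling from about 2 at stage 10 to just under 0 at stage 11.5, and the 4 genes right of it were not.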

How the data were processed

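Gene expression was measured on 20 1-colour Affymetrix Xenopus laevis arrays. The authors deposited 1 table of probe set intensities, normalized with RMA per the submitters' processing notes, and those of the probe sets tested were on a linear scale from 4.67 to 9959.7, although the study's methods describe a log scale. RMA corrects background, sets the arrays to 1 distribution and summarises probes, so a change in total RNA cannot be seen. The log2 of each deposited intensity was taken, 120 control probe sets were left out of 15611, and no filter on dim values was applied. Of the 15491 probe sets tested, 9304 had 1 gene symbol in the platform table, 195 several and 5992 none. 2 symbols were updated through RefSeq.

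limma 3.58.1 (R 4.3.3) was fitted to all 20 arrays, with 10 groups of condition and stage and the clutch as a block (8 residual and 9.82 prior degrees of freedom), with Benjamini-Hochberg adjustment over all probe sets at 0.1. Rank products (Python 3.11) ranked the within-clutch changes, with a 10% false discovery rate. On simulated data both were checked before use. Each clutch gave 1 array of every condition at its stage, and array deviations of the same clutch correlated between 0.485 and 0.801 (median 0.721, 10 pairs of conditions) at stage 11.5, so the block was kept. For 2 stage 10 arrays (Nog+Dkk and Dkk) the clutch was taken from the title, clutch 2, where another label gives clutch 1. The p-values of the main fit rest on the spread left after condition and clutch, pooled over all 20 arrays. In a fit that left out a clutch, the stage of that clutch kept no replicate arrays. The spread then came from the arrays of the other stage alone. Each array is a pool of 10 embryo parts from 1 clutch. The number of arrays limits the precision, and no counts or depths apply.

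Named genes were the injected genes, up to 15 with the largest called change in each direction, up to 5 of each of 24 gene lists by absolute change, genes named in the study and up to 5 a direction of each further comparison. Other list members are named with their values. These were chosen after their values were seen. 1 probe set is not reported here. The members and lists were chosen with earlier results of these data known. In lists, a gene is represented by the probe set of highest mean. A gene can be on several lists, so the counts of different lists are not independent. Among called genes, evx1.L and hoxc6.S are on the posterior neural plate list and also on the BMP4 synexpression and the Hox list, respectively. The otx2 and crx genes and hesx1.L are on both the organizer transcription factor list and the head list. Alternatives tried were no block, stage 11.5 arrays alone, the 4 arrays alone, a trended and robust variance prior, no dim probe sets (a quantile of 0.25 by mean), cyclic loess, equal medians, stricter thresholds and each clutch left out.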

Additional observations from a re-analysis of the deposited data

Results flagged for a closer look

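The change in Nog+Dkk against Ven differed between stage 11.5 and stage 10 for 22 probe sets in a direct test of the difference (limma). Stage 10 was measured in clutches 1 and 2 and stage 11.5 in clutches 3 and 4, so the 2 cannot be told apart. Given as the stage 11.5 change minus the stage 10 change, the difference was -2.26 for aplnr.S, -2.02 for evx1.L, -1.59 for rasl11b.L, -1.57 for aplnr.L, -1.16 for foxi1.L, -1.03 for hoxa7.L and -0.98 for msgn1.L. It was 1.28 for nodal.L, 1.19 for slbp.L, 1.16 for arhgef3.2.L, 0.86 for MGC114680 and 0.79 for tcf7l1.S. Of these 12, aplnr.S and aplnr.L were still called when clutch 1 or clutch 2 was left out, and the other 10 were not. In slbp.L the brighter probe set gave 0.17 and was not called.

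foxi1.L, an ectodermal forkhead gene, had a change of 1.55 at stage 10 and 0.39 at stage 11.5. rasl11b.L, a small GTPase gene, went from 0.94 to -0.65. The adjusted p of foxi1.L (0.099), msgn1.L (0.097), tcf7l1.S (0.097) and slbp.L (0.096) lay close to the threshold of 0.1.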

How the results depend on the processing

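Against the 412 probe sets higher and 300 lower in Nog+Dkk, fitting without the clutch block (the pairing by clutch) called 7 and 5, the stage 11.5 arrays alone 171 and 101, the 4 arrays alone 187 and 92, and an adjusted p below 0.05 left 237 and 137. Leaving out a clutch gave from 178 to 780 higher and from 271 to 471 lower. Without the block, the calls fell to 0 against Nog, 0 against Dkk, 2 against Dor, 0 against the sum of Nog and Dkk and 0 between stages. With the stage 11.5 arrays alone they were 26 against Nog, 18 against Dkk and 0 against the sum. At an adjusted p below 0.05 they were 60, 30 and 0, with 9 between stages. A trended and robust prior called 11 against the sum. With a clutch left out, calls ranged from 212 to 265 against Dor, from 19 to 45 against the sum and from 2 to 272 between stages. Rank products called 25 higher at a 5% false discovery rate, and could not be computed with a clutch left out. The share of calls that were higher was 57.9%, and 39.6% without clutch 4. Over the 134 probe sets of named genes called in Nog+Dkk against Ven, the direction was kept with equal medians and with cyclic loess. The other limma alternatives could not test the direction. Dropping the block, restricting the arrays, changing the variance prior or leaving out dim probe sets leaves the estimated change as it was. All calls had the same direction in both clutches, so leaving out clutch 3 or clutch 4 could not reverse it. Without dim probe sets, 109 of the 134 stayed in. The call was kept for 10 without the block, 85 with the stage 11.5 arrays alone and 99 with the 4 arrays alone. With equal medians it was kept for 132 and with cyclic loess for 123. The cause of these differences was not tested. The 2 clutches limit what can be called. Changes of dim probe sets, near 3 to 4 on the log2 scale, rest on signal close to the lowest measured.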
